A study of Homo sapiens with 2 samples.

Results

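The insulin and IGF signalling genes described here are 10 genes of ligands, receptors, substrates and binding proteins. They are IGF1, IGF2, INSR, IGF1R, IRS1, IRS2, IGFBP1, IGFBP2, IGFBP3 and IGFBP4, taken by symbol from the 60623 entries of the count tables. All 10 were found, each symbol with a single entry, and 7 of them had the 10 counts over both libraries that were required for a comparison. A further entry that GENCODE release 29 also names IGF2 is described with that gene below. RNA sequencing was performed on HepG2 cells, a hepatocellular carcinoma line of hepatocyte character, labelled WT. Cells of both groups received 1 mM free fatty acids (FFA), oleic and palmitic acid bound to albumin, for 24 h as a model of steatosis. The FFA group received nothing further according to its labels, and the FFA + 9-cis-RA group also received 10 μM 9-cis-retinoic acid, a ligand of RXR and RAR nuclear receptors, for 24 h. The methods of the paper state that the solvent, DMSO, was kept equal between groups. They place 9-cis-RA after the FFA treatment, whereas its results call it a co-treatment. Each group had 1 library, and both libraries belong to the same labelled batch. A culture without FFA was not analysed here, so every difference below is between 2 libraries of FFA-loaded cells.

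Insulin and the IGFs bind receptor tyrosine kinases on the cell surface, which phosphorylate the IRS docking proteins and so engage the PI3K-AKT-mTOR chain. In hepatocytes this chain restrains glucose output and promotes lipid synthesis. The liver is also a main source of circulating IGF1 and of several IGF binding proteins, secreted proteins that hold the IGFs and set how much of them reaches the receptors.

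The libraries held 60821539 (FFA) and 57669670 (FFA + 9-cis-RA) fragments counted on genes. Since each group had a single library, the spread between replicates is unknown and neither a test nor an SD was computed. The log2 fold changes are FFA + 9-cis-RA against FFA, on normalized counts with a pseudocount of 1, and each is followed by its exact 95% interval in parentheses. The intervals cover counting error only and compare these libraries, not the conditions. Of the hepatocyte markers, 10 of 10 were detected and passed the minimum, with a summed level of 15662 TPM (counts per exonic length, scaled to the library) in FFA and 12989 TPM in FFA + 9-cis-RA. Of these, ALB (albumin, log2 fold change -0.70), AFP (alpha-fetoprotein, -0.99) and AHSG (fetuin-A, -0.89) were lower by more than 1.5-fold in FFA + 9-cis-RA, and APOB (apolipoprotein B, 0.050) was highest. Among all genes with at least 100 normalized counts in a library, 5.48% were lower by that much and 2.06% higher. Of 16 stellate, endothelial and immune markers, DCN, KDR and PTPRC, 1 of each list, were at 0 in both libraries, and others, named here after their values were seen, were counted at low levels. PECAM1 had 52 counts in FFA and 29 in FFA + 9-cis-RA, CDH5 16 and 10, PDGFRB 37 and 21, and COL3A1 12 and 9. The immune markers compared, CD14 with 9 and 20 counts and CD68 with 5 and 15, were those above a log2 fold change of 1. The summed stellate level was 19.4 and 13.7 TPM in FFA and FFA + 9-cis-RA, mostly ACTA2, with endothelial levels of 1.29 and 0.866 TPM and immune levels of 0.410 and 1.03 TPM. ACTA2 (smooth muscle actin) had 1186 and 773 counts, and VWF (von Willebrand factor) 184 and 118. The part of these markers in the results below was not tested. In bulk RNA, fewer cells with a transcript and less of it per cell cannot be told apart.

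Promoter sequences were available from RefSeq (GRCh38.p14) for 8 of the 10 genes, in 11 windows of 300 bases, and not for IGF2 and IGFBP1. The 250 bases before the transcript start are shown for the IRS genes, since one was among the more abundant members and the other was at 0. They are also shown for IGFBP2 and IGFBP4, binding protein genes that moved in opposite directions and that each have a window with a half-site of nuclear receptors. For IGFBP2, which has several windows, the one with the half-site is shown. Capitals mark GGGCGG (GC box) in the IRS genes, AGGTCA (nuclear receptor half-site) in IGFBP2, and GGTTCA (retinoic acid half-site) and TATAAA (the core of a classical promoter box) in IGFBP4, each searched on both strands with overlapping matches kept.
IRS1 (chr2:226799821-226800070, minus strand): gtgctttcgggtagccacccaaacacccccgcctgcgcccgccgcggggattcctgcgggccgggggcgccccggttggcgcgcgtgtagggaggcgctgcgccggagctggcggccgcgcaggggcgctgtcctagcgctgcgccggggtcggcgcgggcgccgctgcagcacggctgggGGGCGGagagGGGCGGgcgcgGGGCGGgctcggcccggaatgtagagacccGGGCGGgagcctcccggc
IRS2 (chr13:109786584-109786833, minus strand): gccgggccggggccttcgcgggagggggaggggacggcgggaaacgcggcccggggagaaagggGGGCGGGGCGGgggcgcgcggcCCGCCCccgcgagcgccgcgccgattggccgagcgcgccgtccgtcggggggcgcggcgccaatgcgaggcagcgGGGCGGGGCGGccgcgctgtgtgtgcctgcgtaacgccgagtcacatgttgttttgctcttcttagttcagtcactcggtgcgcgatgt
IGFBP2 (chr2:216632578-216632827, plus strand): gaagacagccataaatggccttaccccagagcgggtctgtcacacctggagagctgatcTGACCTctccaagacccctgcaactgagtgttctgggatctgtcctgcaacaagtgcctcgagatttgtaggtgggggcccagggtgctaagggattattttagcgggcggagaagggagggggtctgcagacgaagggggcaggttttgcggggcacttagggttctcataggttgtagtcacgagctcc
IGFBP4 (chr17:40443200-40443449, plus strand): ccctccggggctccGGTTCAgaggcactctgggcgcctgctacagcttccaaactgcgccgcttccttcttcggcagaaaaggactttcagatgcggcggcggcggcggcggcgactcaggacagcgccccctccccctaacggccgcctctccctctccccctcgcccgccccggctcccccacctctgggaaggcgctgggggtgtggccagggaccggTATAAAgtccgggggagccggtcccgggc

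The IRS promoters were alike in composition. Over the windows of 300 bases, IRS1 had 79.3% G and C with 4 GC boxes and IRS2 had 75.7% with 5. The median over 34943 promoter windows of the genome was 58.7%. Other members were also rich in G and C, for instance INSR at 78.3% with 4 GC boxes and IGF1R at 79.7% with 2. The RefSeq start of IRS1 lay 61 bases before the start in the count table, and that of IRS2 coincided with it. In IGFBP2 the half-site lay 191 bases before the start, on the reverse strand, and in IGFBP4 the half-site and TATAAA lay 236 and 29 bases before it. The other IGFBP2 windows, chr2:216633170-216633469 and chr2:216659317-216659616, held neither AGGTCA nor GGTTCA. Of all windows, 44.9% held a GC box, 13.8% AGGTCA, 8.63% GGTTCA and 11.6% TATAAA. The other window of a member with AGGTCA belonged to IGF1. A direct repeat of these half-sites with a spacer of 5 bases, the arrangement best known for RXR with RAR, was in no member window and in 0.0286% of all windows. A match is a description of the letters and not a bound site.

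None of the 7 members compared passed a log2 fold change of 1 in either direction. Across the 20431 genes compared, 3.37% lay above 1 and 4.9% below -1. By direction, IGFBP2, IGF2, INSR and IGF1R were higher with 9-cis-RA, and IRS1, IGFBP4 and IGFBP1 were lower. The counting interval lay above 0 for 4 members and below 0 for 3, as it did for 22.5% and 25.7% of all genes compared. Among the 13306 genes with at least 100 normalized counts in a library these shares were 30.9% and 33.5%, so an interval that leaves out 0 is common at this depth. The median log2 fold change of the members was 0.097, and that of all genes compared was -0.020.

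**Figure D1:**
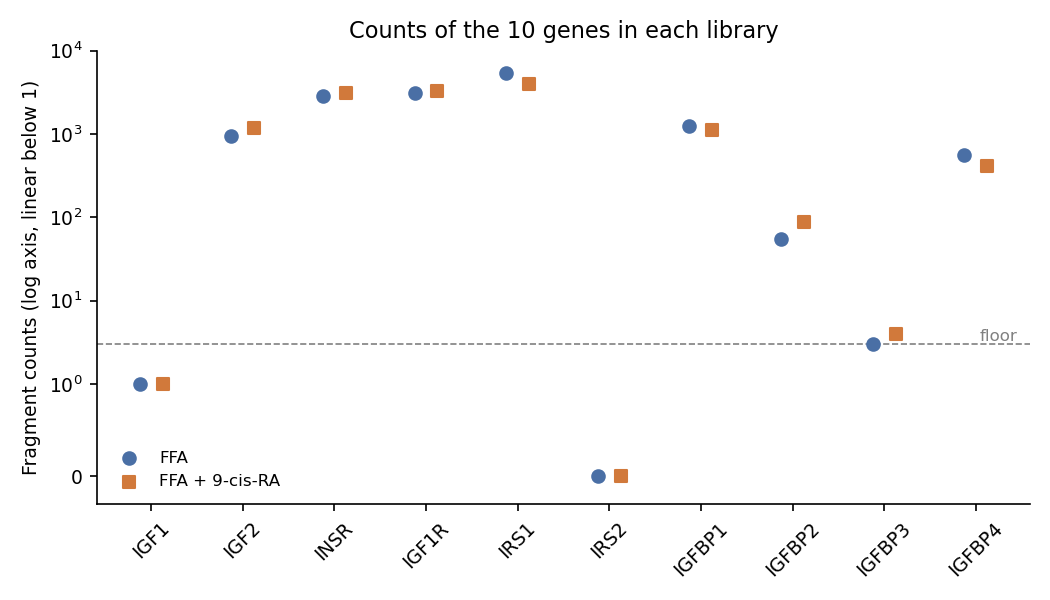
Raw fragment counts (log axis, linear below 1) of the 10 genes in the FFA library (circles) and the FFA + 9-cis-RA library (squares), with the floor of 3 counts as a dashed line. IGF1 and IRS2 lay below the floor in both libraries and IGFBP3 at 3 and 4 counts, and the other 7 genes lay between 55 and 5418 counts.

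Of the ligands, IGF2 was counted and IGF1 was nearly absent. IGF1 (ENSG00000017427), the growth factor that the liver secretes under growth hormone, spans chr12:102395874-102481744 on the minus strand with 8122 exonic bases. It had 1 count in FFA and 1 count in FFA + 9-cis-RA. Both values lay under the floor of 3 counts, or 0.0176 and 0.0191 TPM, so no fold change was taken.

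IGF2 (ENSG00000167244), an imprinted growth factor that is strongly expressed in fetal liver, spans chr11:2129112-2141238 on the minus strand. It had 957 counts in FFA and 1166 in FFA + 9-cis-RA. The level was thus higher with 9-cis-RA, by 0.31 on the log2 scale (interval 0.19 to 0.44), or 1.24-fold. Of the well-counted genes, 91.3% had a lower log2 fold change. These counts came from a minority of the gene. Of the 6259 exonic bases of IGF2, 4424 (70.7%) are also covered on the same strand by other entries, and fragments that overlap several genes were not counted. The other entries were ENSG00000284779, which covers all of these bases and which GENCODE release 29 also names IGF2, INS-IGF2 with 998 bases and ENSG00000240801 with 373 bases. Each of them had 0 counts in both libraries. The level of IGF2 was 7.29 TPM in FFA and 9.63 TPM in FFA + 9-cis-RA over its full length, and 24.9 and 32.9 TPM when only the 1835 bases of its own were taken as its length. The level of IGF2 is therefore uncertain, and these values need not bound it. The ratio between libraries uses the same bases in both, and these lie in the first part of the gene. Whether the shared bases differed in the same way between the libraries could not be tested, since fragments on them were not counted.

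**Figure D2:**
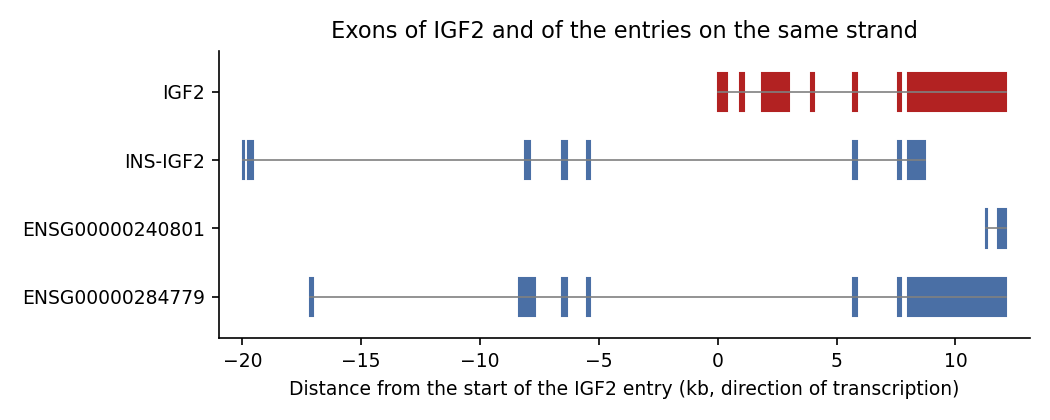
Exons of the IGF2 entry (red) and of 3 other entries on the same strand (blue), by distance from the IGF2 start in kb along the direction of transcription. The longest IGF2 exon block, at the right, lies wholly within ENSG00000284779, and the exons left to IGF2 alone lie in the first part of the gene.

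The receptor genes were well counted and slightly higher with 9-cis-RA. INSR (ENSG00000171105), the insulin receptor, spans chr19:7112255-7294414 on the minus strand, with 10831 exonic bases in 23 blocks. It had 2862 counts in FFA and 3091 in FFA + 9-cis-RA, which puts its log2 fold change at 0.14 (interval 0.065 to 0.21). IGF1R (ENSG00000140443), the type 1 IGF receptor, spans chr15:98648539-98964530 on the plus strand, with 13941 exonic bases in 30 blocks. It had 3127 counts in FFA and 3282 in FFA + 9-cis-RA, and its log2 fold change was 0.097 (interval 0.026 to 0.17). Both differences were small: 54.5% of well-counted genes had a larger difference in either direction than INSR, and 66.6% a larger one than IGF1R.

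The proportion of the receptors to each other was compared within the libraries. INSR counts were 0.915 of IGF1R counts in FFA and 0.942 in FFA + 9-cis-RA, and the change of this ratio (log2 0.041, interval -0.062 to 0.14) was not distinguishable from 0 at this depth. Per length, INSR stood at 12.6 and 14.8 TPM in FFA and FFA + 9-cis-RA, and IGF1R at 10.7 and 12.2 TPM.

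Of the substrate genes, IRS1 was well counted and IRS2 was at 0. IRS1 (ENSG00000169047), a docking protein of both receptors, spans chr2:226731317-226799759 on the minus strand, with 9953 exonic bases in 3 blocks. It had 5418 counts in FFA and 3954 in FFA + 9-cis-RA, the most counts of any member in either library. IRS1 was lower with 9-cis-RA, at -0.43 on the log2 scale (interval -0.49 to -0.37), or 0.744 of the FFA level. Of the well-counted genes, 9.09% had a lower log2 fold change and 13.6% a larger difference in either direction. IRS1 was also lower relative to the receptors, a comparison within each library that needs no scaling between them. IRS1 had 1.89 counts per INSR count in FFA and 1.28 in FFA + 9-cis-RA, a log2 change of -0.57 (interval -0.66 to -0.47), and its ratio to IGF1R changed by -0.52 (interval -0.62 to -0.43).

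IRS2 (ENSG00000185950), the other main docking protein of liver insulin signalling, spans chr13:109752695-109786583 on the minus strand, with 8156 exonic bases in 2 blocks. It had 0 counts in FFA and 0 counts in FFA + 9-cis-RA. No other entry covers its exons on the same strand. A count of 0 allows up to 3 counts per library, or 0.0175 TPM in FFA and 0.0190 TPM in FFA + 9-cis-RA. With the IRS1 level taken as measured, IRS1 was at least 1480-fold above this floor per length in FFA and at least 1080-fold in FFA + 9-cis-RA. These bounds cover the counting error of IRS2 only and not that of IRS1. VIM, a cytoskeletal gene named after its values were seen, was also at 0 in both libraries. A lack of transcript in the cells and a loss in mapping or counting cannot be told apart from the count tables, so the bounds hold for the counts and not for expression.

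**Figure D3:**
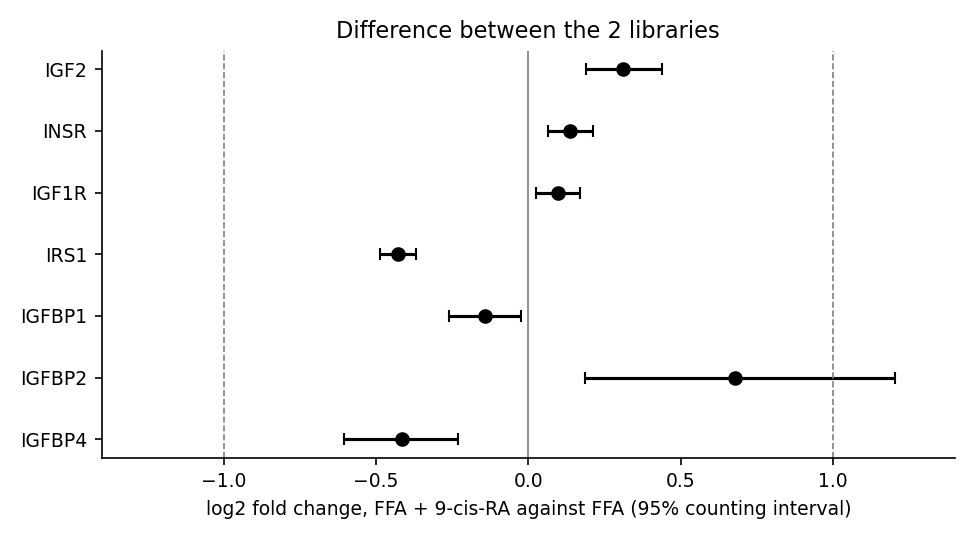
Log2 fold change, FFA + 9-cis-RA against FFA, of the 7 members compared (points), with the exact 95% interval of counting error (bars) and dashed lines at -1 and 1. All points lie between the dashed lines, with IRS1 at -0.43 and IGFBP4 at -0.42 lowest, and the interval of IGFBP2 alone reaches past 1, to 1.20.

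The binding protein genes did not move together. IGFBP1 (ENSG00000146678), a liver-secreted binding protein whose gene insulin represses, spans chr7:45888360-45893660 on the plus strand, with 1642 exonic bases in 4 blocks. It had 1250 counts in FFA and 1111 in FFA + 9-cis-RA, slightly lower with 9-cis-RA at -0.14 on the log2 scale (interval -0.26 to -0.025). A difference of this size was ordinary, since 53.7% of well-counted genes had a larger one in either direction.

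IGFBP2 (ENSG00000115457), a binding protein with a preference for IGF2, spans chr2:216632828-216664436 on the plus strand, with 4742 exonic bases. It had 55 counts in FFA and 87 in FFA + 9-cis-RA. The level was higher with 9-cis-RA by a log2 fold change of 0.68, the highest of the members, with the widest interval among those compared (0.19 to 1.20). It was the only one of the 7 under 100 normalized counts in both libraries, at 54.5 and 87.8.

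IGFBP4 (ENSG00000141753), a binding protein that inhibits IGF action until the protease PAPPA cleaves it, spans chr17:40443450-40457725 on the plus strand, with 2205 exonic bases. It had 555 counts in FFA and 408 in FFA + 9-cis-RA. IGFBP4 was lower with 9-cis-RA, at -0.42 on the log2 scale (interval -0.60 to -0.23), and 9.38% of well-counted genes had a lower one. Within the libraries, its ratio to IGFBP1 changed by -0.27 (interval -0.50 to -0.052), whereas the ratio of IGFBP2 to IGFBP1 changed by 0.83 (interval 0.31 to 1.36), both on the log2 scale.

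IGFBP3 (ENSG00000146674), the main binding protein of the circulation, spans chr7:45912245-45921874 on the minus strand and lies 18.6 kb from IGFBP1. It had 3 counts in FFA and 4 in FFA + 9-cis-RA, a ratio of 1.36 with an interval from 0.230 to 9.28, so no difference was detectable at this depth. These neighbours on chromosome 7 thus stood far apart in level. IGFBP1 gave 74.3% of the summed TPM of the 4 binding protein genes in FFA and 76.8% in FFA + 9-cis-RA, IGFBP4 24.6% and 21.0%, IGFBP2 1.13% and 2.08%, and IGFBP3 0.0640% and 0.0993%.

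Per length, IGFBP1 was the most abundant member in both libraries, at 36.3 TPM in FFA (exact Poisson interval 34.3 to 38.3) and 35.0 TPM in FFA + 9-cis-RA (33.0 to 37.1). IRS1 followed at 25.9 TPM (25.3 to 26.6) and 20.5 TPM (19.9 to 21.2). Below it in FFA came INSR at 12.6 TPM (12.1 to 13.1), IGFBP4 at 12.0 TPM (11.0 to 13.0) and IGF1R at 10.7 TPM (10.3 to 11.1). The interval of IGFBP4 overlapped those of both receptors. In FFA + 9-cis-RA the order was INSR at 14.8 TPM (14.2 to 15.3), IGF1R at 12.2 TPM (11.8 to 12.6), IGF2 at 9.63 TPM (9.09 to 10.2) and IGFBP4 at 9.57 TPM (8.66 to 10.5). IGFBP4 thus lay among the receptors in FFA and beneath both of them in FFA + 9-cis-RA, where its interval overlapped that of IGF2. IGFBP2 was far lower, at 0.553 and 0.949 TPM in FFA and FFA + 9-cis-RA. The place of IGF2 in this order depends on the length taken for it.

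**Figure D4:**
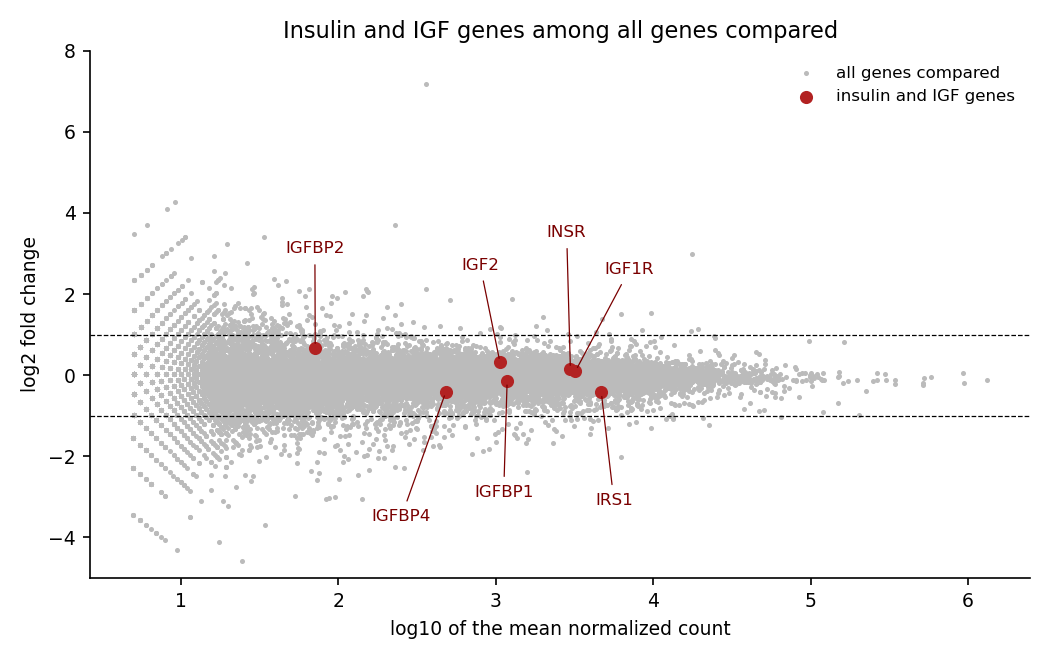
Log2 fold change, FFA + 9-cis-RA against FFA, by log10 of the mean normalized count for the 20431 genes compared (grey) and the 7 members among them (red), with dashed lines at -1 and 1. The members lie within the cloud of genes of like abundance, with IRS1 and IGFBP4 toward its lower side and IGF2 toward its upper side.

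The other genes of the IGF system, 16 in number, were described by counts and medians. Of these, 9 could be compared, with 2 higher and 7 lower in FFA + 9-cis-RA, and the interval lay below 0 for 4 and above 0 for none. Of all genes compared, 47.7% were higher, and the interval lay below 0 for 25.7% and above 0 for 22.5%. Those below 0 in the list were IGFALS and the genes of RNA-binding proteins IGF2BP1 (-0.058), IGF2BP2 (-0.22) and IGF2BP3 (-0.21). The IGF2BP genes are named outside the rule, after their values were seen, and IGF2BP1 is also the median of the list. The median log2 fold change of the list was -0.058, and it was -0.0091 with total-count scaling, -0.13 with the length trend removed and -0.10 with at least 50 counts. None passed 1.5-fold among the 7 well-counted genes, against 2.06% of all well-counted genes higher and 5.48% lower by that much. IGFALS, the acid-labile subunit that stabilises IGF complexes in blood, was lowest at -0.34, with 418 and 324 counts in FFA and FFA + 9-cis-RA. STC2, an inhibitor of PAPPA, was the highest of the well-counted genes at -0.013, with 14587 and 14183 counts.

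IGF2R, the receptor that clears IGF2, had 13220 and 12816 counts and stood at -0.017 on the log2 scale (interval -0.052 to 0.018). The ratio of IGF2 to IGF2R therefore changed by 0.33 on the log2 scale (interval 0.20 to 0.46). INS, the insulin gene, had 0 counts in both libraries. H19, the imprinted RNA gene 128 kb from IGF2, had 0 counts in FFA and 1 in FFA + 9-cis-RA. As for IRS2, a lack of H19 transcript and a loss in mapping or counting cannot be told apart.

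Of 14 adaptors and feedback regulators, 13 were compared, with 8 higher and 5 lower and a median of 0.10. Of all genes compared, 47.7% were higher. The interval lay above 0 for 7 and below 0 for 1, against 22.5% and 25.7% of all genes compared. Among those well counted the shares were 30.9% and 33.5%. Of all well-counted genes, 2.06% were at least 1.5-fold higher and 5.48% lower by that much. SOCS3, an inhibitor of cytokine and insulin receptor signalling, was the only one of the 12 well-counted genes here past 1.5-fold. It had 80 counts in FFA and 137 in FFA + 9-cis-RA, higher by 0.80 on the log2 scale (interval 0.40 to 1.22). SHC1, an adaptor that links the receptors to the RAS pathway, was lowest at -0.31 (interval -0.37 to -0.25), with 5631 and 4455 counts.

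All 24 genes of the PI3K-AKT-mTOR chain were compared, with 17 higher and 7 lower and a median of 0.082, where 47.7% of all genes compared were higher. None of its 22 well-counted genes passed 1.5-fold, against 2.06% of all well-counted genes higher and 5.48% lower by that much. PHLPP2, a phosphatase of AKT, was highest at 0.47, with 1506 and 2040 counts. Its relative PHLPP1 was lowest of the well-counted genes at -0.18, with 2623 and 2278 counts. The interval lay above 0 for 11 genes and below 0 for 4, against 22.5% and 25.7% of all genes compared and 30.9% and 33.5% of those well counted. PIK3R2, a regulatory subunit of PI3K, had 23 and 25 counts, and 86.5% of its exonic bases are not unique to it on the same strand.

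Of 11 genes whose transcription or activity insulin controls in liver, 10 were compared, with 5 higher and 5 lower and a median of 0.12. The median was -0.027 with no count minimum and 0.061 with the length trend removed. Of all genes compared, 47.7% were higher. The interval lay above 0 for 5 and below 0 for 3, against 22.5% and 25.7% of all genes compared. Of the 8 well-counted genes, 2 were higher and 1 was lower by more than 1.5-fold, against 2.06% and 5.48% of all well-counted genes. Of the 10 genes, 3 lay above 1, as did 3.37% of all genes compared, and no gene of the other pathway lists did. SREBF1, a transcription factor of lipid synthesis that insulin induces, had 3282 counts in FFA and 9232 in FFA + 9-cis-RA, higher by 1.52 on the log2 scale (interval 1.46 to 1.58). PCK1, a gluconeogenic enzyme whose gene insulin represses, had 40 and 138 counts, higher by 1.79 on that scale (interval 1.30 to 2.36). Other genes went in either direction. PPARGC1A, a coactivator of gluconeogenesis, was lower at -0.26 with 852 and 700 counts, and IGFBP1, which insulin also represses, was lower as given above. G6PC1, the catalytic subunit of glucose 6-phosphatase, had 7 and 4 counts, with an interval that included 0. PDK4, a kinase that inhibits pyruvate dehydrogenase, was higher like PCK1, at 1.21 (interval 0.32 to 2.28) on 14 and 33 counts. PDK4, PPARGC1A and G6PC1 are named outside the rule, after their values were seen. BCL6, a repressor that is a target of FOXO factors, was lowest at -0.71 (interval -0.79 to -0.62), with 2851 and 1714 counts.

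**Figure D5:**
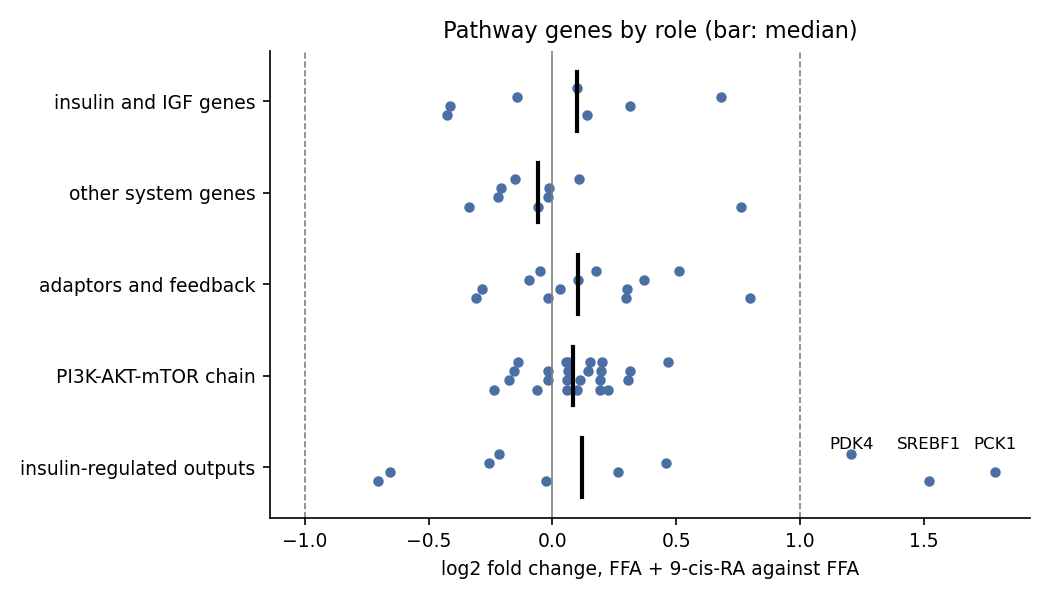
Log2 fold change, FFA + 9-cis-RA against FFA, of the genes compared in each group (points, spread vertically for legibility) and the median of the group (black bar), with dashed lines at -1 and 1. The medians lie between -0.058 and 0.12, and PDK4, SREBF1 and PCK1 lie above 1.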

How the data were processed

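For 2 HepG2 libraries made from poly(A) RNA with a stranded kit, the deposited tables hold unnormalized fragment counts and the exonic length of each gene. Per the file headers, featureCounts version 2.0.1 was set to pairs whose ends both mapped, reverse strand (setting 2), with a check of fragment length whose effect was not tested. It left out reads that mapped to several places or overlapped several genes. The aligner is not given in the sources used here, and the build was GRCh38 per the processing notes. Of the 60623 entries, 42005 had a symbol and 58516 an identifier in GENCODE release 29.

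Counts were divided by DESeq2 (version 1.42.0) size factors in R version 4.3.3. Genes whose counts summed to at least 10 were compared on log2 normalized counts plus 1. Intervals were exact (Clopper-Pearson for ratios, Poisson for TPM). TPM was computed from counts and exonic length. Well-counted genes had at least 100 normalized counts in a library. Floors were 3 counts. Steps were tested on simulated data in Python 3.11.15 (numpy 2.4.6, pandas 2.3.3, scipy 1.17.1, statsmodels 0.14.6, matplotlib 3.10.9). All members were named. Other listed genes were named where they were well counted and past 1.5-fold, or highest or lowest of their list, and where they bear on a member. One listed gene is not reported here. The members and lists were chosen with earlier results of these data known. Alternatives were TMM (edgeR version 4.0.16) and total-count scaling, pseudocounts of 0.1 and 5, removal of a trend on gene length (lowess span 0.3), other count minimums, the whole interval past 1, and TPM without mitochondrial genes.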

Additional observations from a re-analysis of the deposited data

How the results depend on the processing

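No member passed a log2 fold change of 1, changed direction or was reversed under TMM or total-count scaling, pseudocounts of 0.1 and 5, or removal of the trend on gene length. Across these settings IRS1 ranged from -0.50 to -0.38, IGFBP4 from -0.42 to -0.37, IGFBP1 from -0.14 to -0.075, IGF1R from 0.023 to 0.15, INSR from 0.067 to 0.19, IGF2 from 0.26 to 0.36 and IGFBP2 from 0.64 to 0.73. Removal of the length trend moved IRS1 to -0.50 and IGF1R, whose value is also the median of the members, to 0.023, both outside their counting intervals. The background counts moved more: 341 genes lay above 1 and 594 below -1 with a pseudocount of 5, 3771 and 2493 with no count minimum, 153 and 361 with at least 50 counts, and 79 and 190 with the whole interval past 1, against 689 and 1002. The share of these calls that lay below -1 was 59.3%, and it was 63.5% with a pseudocount of 5, 39.8% with no count minimum, 70.2% with at least 50 counts and 70.6% with the whole interval past 1. Leaving mitochondrial genes out of TPM raised the level of each of the 7 members compared, for instance IRS1 to 36.8 and 28.8 TPM in FFA and FFA + 9-cis-RA, without changing ratios between genes of 1 library. The length of IGF2 restricted to its own bases was chosen after seeing the data. No paired analysis was possible because each group had 1 library. A difference due to 9-cis-RA and one between separate cultures cannot be told apart with these 2 libraries.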

Other observations

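Genes beside the insulin and IGF system were read from lists added after the data were seen. Of the growth hormone axis, which drives IGF1 in liver, the receptor gene GHR had 0 counts in FFA and 3 in FFA + 9-cis-RA, both at or under the floor, beside the 1 count of IGF1 in each. The kinase gene JAK2 had 381 and 484 counts and was higher by 0.37 on the log2 scale (interval 0.18 to 0.57). STAT5A, a transcription factor of this axis, had 818 and 470 counts and was lower by more than 1.5-fold at -0.77 (interval -0.94 to -0.61), whereas its close relative STAT5B had 2374 and 2487 counts and stood at 0.095 (interval 0.013 to 0.18).

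Of 9 other receptor tyrosine kinase genes, 8 were compared, with 4 higher and 4 lower and a median log2 fold change of 0.061. MET, the receptor of hepatocyte growth factor, was lowest at -0.46 (interval -0.51 to -0.41), with 8454 and 6023 counts in FFA and FFA + 9-cis-RA. ERBB2 was highest at 0.41 (interval 0.33 to 0.48), with 2461 and 3198 counts. The differences of INSR and IGF1R, 0.14 and 0.097, lay between these. Per length, FGFR4, the receptor of the gut hormone FGF19 in liver, stood at 369 and 386 TPM in FFA and FFA + 9-cis-RA, where INSR stood at 12.6 and 14.8 TPM.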
